A study of Arabidopsis thaliana with 12 samples.

Results

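Seeds of the Arabidopsis thaliana ecotype Col-0 labelled with the genotype atalkbh1a1b were examined for their response to stratification, by setting their 3 stratified libraries against their 3 dry libraries. These are 6 of the 12 libraries of the series, and every locus of the deposited table was considered: 32833 in all, of which 22867 had a value above 0 in at least 1 of the 6. Of all loci, 15145 reached 1 RPKM (a read density scaled by transcript length and by library size) in at least 3 of the 12 libraries and were tested. The series set this mutant line beside the wild type, each as dry seeds at day 0 and as seeds kept for 2 days under water at 4 °C, with 3 libraries in each group. The series title names AtALKBH1A and AtALKBH1B as demethylases of N6-methyladenine in DNA. The labels describe neither the alleles nor the number of independent lines, and they do not tell how the replicates were obtained. The p-values therefore cover sample-to-sample spread that could be purely technical. No group was wetted without cold, so cold, imbibition and time cannot be told apart.

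A dry Arabidopsis seed holds a stored messenger RNA population laid down during maturation under the control of abscisic acid and of B3 and bZIP transcription factors. It encodes storage proteins, oil-body proteins and the hydrophilic LEA proteins that protect cells during drying. Upon imbibition stored messengers are degraded while transcription resumes, and moist cold raises the synthesis of gibberellin, the hormone that counters the DELLA repressors, loosens the cell walls of the embryo and endosperm, and promotes germination.

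The libraries held 17800000 to 18700000 reads in dry and 21800000 to 22800000 in stratified mutant-labelled seeds. Nuclear ribosomal RNA loci took 4.07%, 10.8% and 3.65% of the reads of dry libraries 1, 2 and 3, and 15.2%, 3.83% and 29.3% of those of stratified libraries 1, 2 and 3. A larger ribosomal RNA share lowers the RPKM of all other genes in that library. The log2 levels of the 3 dry libraries correlated across genes at r = 0.99 or above. Stratified library 2 stood somewhat apart, at 0.957 and 0.949 with libraries 1 and 3, against 0.991 between those. In the wild type, stratified library 3 stood apart from libraries 1 and 2 (0.916 and 0.890) and lay nearer to mutant-labelled stratified libraries 1 and 3 (0.986 and 0.980). The sources used here do not pair the names ALKBH1A and ALKBH1B with loci. Of the family members examined, AT1G11780 was detected in every library and AT3G14140 had 0 to 4 reads in each. AT5G01780 had 166 to 319 reads in each wild-type library, stratified library 3 included, and 7 to 23 in each mutant-labelled one.

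After 2 days of stratification the stored seed transcripts of mutant-labelled seeds had fallen. Transcripts for ribosomes, the CCT chaperonin, the proteasome and cell-wall loosening had risen, as had those of some gibberellin synthesis genes. By limma with a threshold of 0.05 on the adjusted p, 6567 genes (43.4% of those tested) were called higher and 2308 (15.2%) lower, 58.6% in all. At least a 2-fold change was reached by 4694 genes upward and 1510 downward, a 4-fold change by 1518 and 407, and a 16-fold change by 117 and 11. The median change on the log2(RPKM + 1) scale was 1.32 among the genes that rose and -1.23 among those that fell. The median over all tested genes was 0.50, so that a gene with no change in RPKM fell relative to the typical gene. With medians set equal, the split became 4981 higher and 5121 lower, and with quantile normalization 4904 and 5300. The directions below are therefore those of RPKM. Values near 0 depend on the scaling, and so do some larger ones. The storage protein gene CRA1 went from -1.88 to 0.19 with quantile normalization. Of the 6270 genes not called, 3714 had a 95% interval within a 2-fold change either way. Dry and stratified values did not overlap in 9080 of the 15145 tested genes, so a lack of overlap was common. The number of loci at 1 RPKM or more in all 3 libraries was 11503 in dry and 12755 in stratified seeds.

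**Figure D1:**
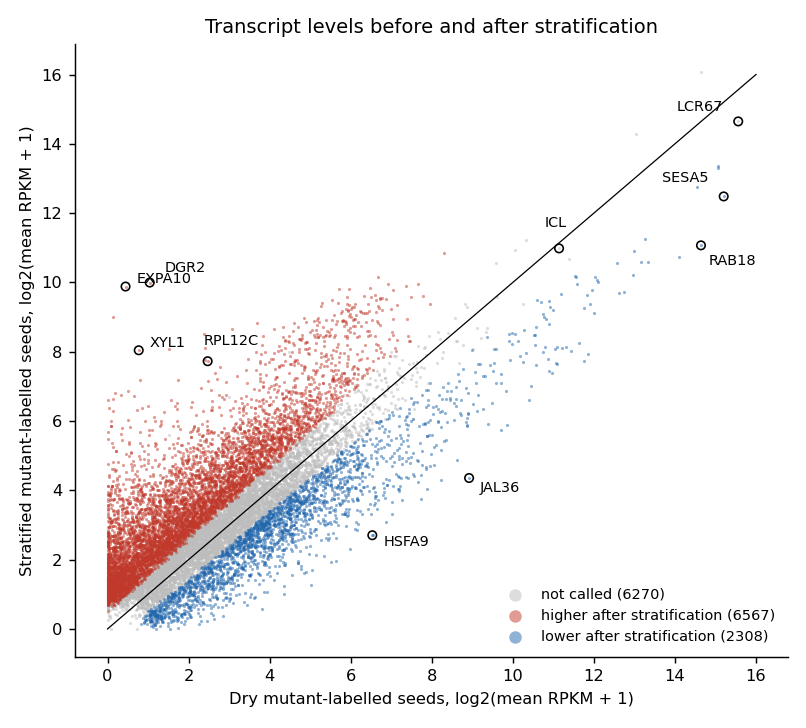
Mean level of each of the 15145 tested genes in dry (x axis) and stratified (y axis) mutant-labelled seeds, both as log2(mean RPKM + 1), with the line of equal level. Red points are the 6567 genes that rose, blue points the 2308 that fell and grey points the 6270 not called, and circles mark named genes. The genes that rose most came from levels near 0, while those that fell include abundant messengers of the dry seed. The most abundant, LCR67, was not called.

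The stored programme fell as a group. All 9 tested storage protein genes fell, with a median log2 change of -1.88, as did 5 of 6 oil-body genes and 28 of 34 genes for LEA proteins and dehydrins (medians -2.34 and -2.14). With quantile normalization 1 of the 9 storage genes was called lower, and without a filter on low values 5 were. SESA5, a 2S albumin, stood at 40122, 27201 and 45780 RPKM in dry libraries 1, 2 and 3 and at 6192, 7645 and 3316 in stratified libraries 1, 2 and 3. All stratified values lay below all dry values, and the log2 change was -2.77 ± 0.72 (SE; limma adjusted p = 0.00327). PAP85, a vicilin, went from 11808, 8117 and 11292 to 1073, 2859 and 646 RPKM, a change of -3.03 ± 0.67. CRU3 and CRA1, the 12S cruciferins, changed by -1.78 ± 0.73 and -1.88 ± 0.69 (adjusted p = 0.0438 and 0.0272). Of 22 fits, the call of CRU3 held in 6 and that of CRA1 in 14. With quantile normalization the calls of SESA5, PAP85, RAB18, GEA6 and OLEO2 were lost as well. These messengers remained among the most abundant after stratification, at a mean of 10430 RPKM for CRU3 and 6899 for CRA1. RAB18, a dehydrin that responds to abscisic acid, had 28082, 19310 and 29289 RPKM dry and 1975, 3463 and 1007 stratified, a change of -3.72 ± 0.67, and the LEA gene GEA6 (EM6) changed by -3.61 ± 0.65. OBAP1A, an oil-body-associated protein, fell from 3715, 2605 and 4011 to 192, 347 and 96.2 RPKM (-4.18 ± 0.54), and the oleosins OLEO4 and OLEO2, which coat oil bodies, changed by -3.52 ± 0.55 and -2.57 ± 0.55. The uncalled member was OLEO3, at 26.5, 17.5 and 27.9 RPKM dry and 36.6, 37.9 and 18.3 stratified (adjusted p = 0.372). The LEA gene that rose was LEA3, from 0.06903, 0.134 and 0.0656 to 3.11, 2.64 and 1.83 RPKM.

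LCR67, which encodes a defensin-like peptide, was the most abundant messenger in the dry libraries at 52213, 36021 and 56769 RPKM and stood at 30599, 25886 and 20434 after stratification, where no stratified value reached a dry one. Its change of -0.91 ± 0.80 did not pass (limma adjusted p = 0.341), which does not show that it was unchanged. The largest falls among genes without overlap and with at least 5 RPKM were not those of storage proteins. JAL36, a jacalin-related lectin, dropped from 518, 384 and 549 to 15.1, 36.7 and 6.62 RPKM (-4.85 ± 0.48, adjusted p = 3.33e-07). The neighbouring BGLU19, a beta-glucosidase, changed by -4.26 ± 0.59, NSP2, a nitrile specifier protein of glucosinolate breakdown, by -4.01 ± 0.49, and XTH25, a xyloglucan-modifying enzyme, by -4.28 ± 0.59. XTH25 stood at 1556, 1012 and 1511 RPKM dry, so its direction was opposite to that of most xyloglucan genes that passed the test.

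Among the small heat shock proteins, chaperones stored in dry seeds, 11 of 19 fell and 3 rose. HSP17.6A (AT5G12030) had 7269, 5305 and 8068 RPKM dry and 439.8, 1861 and 215 stratified, a change of -3.59 ± 0.67. The drop was smallest in stratified library 2, and this held for the list: its median difference from the dry mean was -2.56, -0.14 and -3.14 in stratified libraries 1, 2 and 3. HSP23.5, the member with the largest rise, reached 16.4, 125 and 9.43 RPKM from 6.92, 5.01 and 6.15, and its call was lost without stratified library 2 (limma adjusted p = 0.0177, and 0.133 without that library). Without stratified library 2 the list had 13 genes lower and 1 higher. HSFA9, the heat stress factor of seed maturation, fell from 101, 80.4 and 93.8 to 3.22, 11.02 and 2.31 RPKM (-4.06 ± 0.40, limma adjusted p = 3.17e-07). The raffinose-family list divided, with 3 of 7 higher (42.9%, near the 43.4% of all tested genes) and 3 lower (42.9%, against 15.2%). GolS2 and GolS1, galactinol synthases that feed raffinose synthesis, changed by -4.16 ± 0.45 and -2.66 ± 0.45, and MIPS2, an inositol phosphate synthase, by -3.87 ± 0.36. Against these, DIN10, of the raffinose synthase family, rose from 0, 0.0175 and 0.0172 to 12.6, 16.9 and 7.87 RPKM.

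As shares of summed RPKM with ribosomal RNA left out, storage protein messengers held 23.3, 23.8 and 24.4% of dry libraries 1, 2 and 3 and 8.89, 8.15 and 8.12% of the stratified ones. LEA messengers held 10.3, 9.52 and 10.3% and 2.11, 3.94 and 1.98%. Over the same change, cytosolic ribosomal protein messengers went from 1.29, 1.26 and 1.25% to 15.6, 13.1 and 14.7%. Groups did not overlap for these classes. The 10 most abundant loci together held 39.2, 38.2 and 40.3% of the dry and 16.1, 14.8 and 18.8% of the stratified totals. Shares cannot tell less of a messenger from more of the others.

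**Figure D2:**
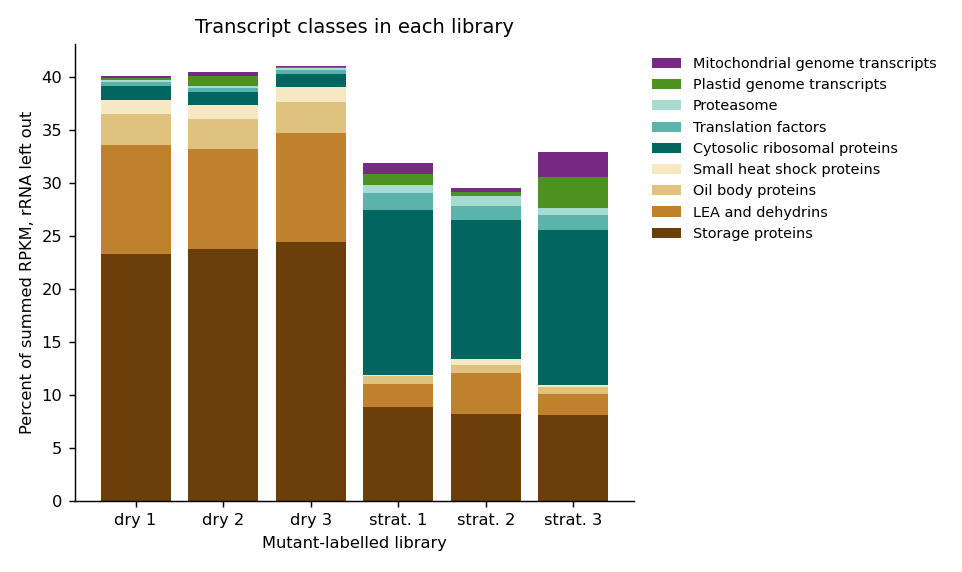
Percent of summed RPKM, nuclear ribosomal RNA left out (y axis), held by 9 transcript classes in each of the 6 mutant-labelled libraries (x axis, strat. for stratified). Storage and LEA messengers take up most of the coloured part of the dry bars. Cytosolic ribosomal protein messengers are the largest of the 9 classes in the stratified bars, at 13.1% to 15.6% against 1.25% to 1.29% in dry seeds.

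The 200 bases upstream of the annotated gene start were read for motifs known from seed genes, on both strands. They are shown for the pair of genes with the largest falls in the LEA, storage and oil-body lists, which carry the drop of the stored programme. Capitals mark the core of the abscisic acid response element (ABRE), ACGTG, read as CACGT on the other strand, in the LEA genes and SESA5, and the RY element bound by B3 factors, CATGCA, in SESA5, PAP85, OBAP1A and OLEO4. Sequences are from the TAIR10.1 assembly with RefSeq gene starts, written 5′ to 3′ on the strand of the gene, at chr5:21605675-21605874 (minus) for AT5G53260, chr3:7970844-7971043 (minus) for RAB28, chr5:22239188-22239387 (minus) for SESA5, chr3:8013942-8014141 (minus) for PAP85, chr1:1629246-1629445 (plus) for OBAP1A and chr3:10243044-10243243 (plus) for OLEO4.
AT5G53260: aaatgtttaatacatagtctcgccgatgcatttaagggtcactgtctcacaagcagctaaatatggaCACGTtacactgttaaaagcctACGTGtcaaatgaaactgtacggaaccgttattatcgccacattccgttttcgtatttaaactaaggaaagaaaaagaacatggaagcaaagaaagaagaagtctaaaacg
RAB28: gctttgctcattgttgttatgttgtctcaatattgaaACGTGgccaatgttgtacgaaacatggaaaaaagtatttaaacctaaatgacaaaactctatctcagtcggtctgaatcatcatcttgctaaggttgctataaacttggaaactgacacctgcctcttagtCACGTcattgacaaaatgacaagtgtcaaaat
SESA5: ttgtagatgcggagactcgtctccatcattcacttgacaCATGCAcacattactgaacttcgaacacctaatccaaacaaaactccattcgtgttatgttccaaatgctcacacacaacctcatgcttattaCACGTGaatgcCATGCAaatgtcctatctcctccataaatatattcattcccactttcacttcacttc
PAP85: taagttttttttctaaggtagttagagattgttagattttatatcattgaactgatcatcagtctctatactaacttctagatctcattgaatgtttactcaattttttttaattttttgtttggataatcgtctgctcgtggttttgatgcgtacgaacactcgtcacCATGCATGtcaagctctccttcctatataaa
OBAP1A: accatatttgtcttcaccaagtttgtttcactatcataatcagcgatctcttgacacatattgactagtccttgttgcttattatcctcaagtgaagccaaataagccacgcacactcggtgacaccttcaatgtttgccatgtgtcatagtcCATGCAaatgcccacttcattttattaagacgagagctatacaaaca
OLEO4: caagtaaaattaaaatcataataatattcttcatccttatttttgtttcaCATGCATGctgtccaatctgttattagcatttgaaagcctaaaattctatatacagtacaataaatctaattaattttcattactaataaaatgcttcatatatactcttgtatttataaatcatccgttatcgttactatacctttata
The run CACGTG in SESA5 is that core on both strands, and CATGCATG in PAP85 and OLEO4 holds the RY element on both, each counted once per promoter. AT5G53260, a LEA gene, went from 61.4, 45.8 and 79.9 to 1.81, 8.62 and 1.54 RPKM, and RAB28 from 731, 494 and 767 to 40.2, 118 and 19.3. The ABRE core was present in 26 of 34 LEA promoters, 6 of 9 storage and 3 of 6 oil-body promoters, and in 20.9% of all 14716 promoters of tested genes. Outside the stored programme, 12 of 19 circadian clock promoters held it. It was present in 28.7% of promoters of genes that fell, in 43.2% of those that fell at least 4-fold and in 19.0% of those that rose. The RY element was present in 8 of 9 storage and 6 of 6 oil-body promoters, in 8 of 34 LEA promoters and in 5.35% of all. Among genes that fell at least 4-fold its share was 14.6%. A heat shock element, GAANNTTC, was present in 4 of 19 small heat shock protein promoters against 7.14% of all.

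Ribosomal protein genes rose almost without exception. Of 194 tested cytosolic ribosomal protein genes, 192 rose, with a median log2 change of 3.07. RPL12C, of the large subunit, stood at 5.04, 3.85 and 4.74 RPKM in the dry and 242, 264 and 126 in the stratified libraries, a change of 5.19 ± 0.37 (limma adjusted p = 9.88e-09). RPL17A went from 12.7, 9.49 and 13.5 to 558, 493 and 309 RPKM, and RPP3A, an acidic stalk protein, from 2.24, 0.352 and 2.27 to 92.4, 77.98 and 55.5. Stratified library 3 was lowest for each of these genes, yet lay far above every dry library. RPS8B, of the small subunit, had no read in any dry library and reached 10.8, 14.03 and 6.29 RPKM. The exceptions were RPL18AA (AT1G29970), which changed by -1.09 ± 0.30, and AT1G57540, at 0.67 ± 0.29 (adjusted p = 0.0563), which 5 of 22 fits called higher. Members of these families have near-identical copies, and how the authors' counting split their reads is not given, so values of single members are uncertain.

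Ribosome biogenesis rose in 22 of 24 genes. FIB2, a fibrillarin that methylates ribosomal RNA, went from 8.79, 5.85 and 7.68 to 463, 465 and 268 RPKM (5.54 ± 0.32). NOP56 and NAP57, proteins of nucleolar particles, changed by 3.37 ± 0.37 and 3.23 ± 0.35. RACK1C, a scaffold protein of the ribosome, rose from 0.688, 0.629 and 0.423 to 122, 124 and 67.4 RPKM. Translation factors rose in 45 of 60 genes and fell in none, and aminoacyl-tRNA synthetases rose in 37 of 51, with 1 lower. The initiation factor gene EIF3G2 changed by 3.30 ± 0.28. FBR12, an eIF5A, stood at 112, 82.8 and 118 RPKM dry and 871, 857 and 476 stratified. With medians set equal, 7 translation factor genes were lower.

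Genes of the CCT chaperonin and the proteasome also rose. All 9 subunits of CCT, the chaperonin that folds actin and tubulin, rose, with a median of 2.07, CCT8 from 12.8, 9.96 and 12.01 to 113, 109 and 65.6 RPKM. Of 48 proteasome genes, 45 rose and 1 fell, with a median of 1.65. PAD1, a subunit of the core particle, went from 14.8, 10.5 and 14.5 to 133, 186 and 67.9 RPKM, and PBD2 changed by 3.08 ± 0.31. Stratified library 2 was highest for both. The gene that fell, AT1G53780, is annotated as a regulatory-complex ATPase and went from 119.7, 102 and 132 to 12.1, 30.6 and 8.06 RPKM, a change of -2.93 ± 0.38. Among vacuolar proteases 3 of 8 rose and 1 fell, or 3 and 3 with medians set equal, against 43.4% and 15.2% of all tested genes. The rises were led by RD19 (3.51 ± 0.29), and BETA-VPE, which processes storage proteins during maturation, changed by -1.55 ± 0.38.

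The promoters of RPL12C and RPL17A, which had the largest rises of the list, are shown for the elements known from plant ribosomal protein genes, read in the same way, at chr5:24381600-24381799 (minus) and chr1:9514914-9515113 (plus) of TAIR10.1. Capitals mark the telo box, AAACCCTA, in RPL12C and the site II element, TGGGCC, read as GGCCCA on the other strand, in RPL17A.
RPL12C: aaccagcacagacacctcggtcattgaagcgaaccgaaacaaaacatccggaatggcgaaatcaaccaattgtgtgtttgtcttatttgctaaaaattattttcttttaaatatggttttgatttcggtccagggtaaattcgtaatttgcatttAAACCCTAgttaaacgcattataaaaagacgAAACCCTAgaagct
RPL17A: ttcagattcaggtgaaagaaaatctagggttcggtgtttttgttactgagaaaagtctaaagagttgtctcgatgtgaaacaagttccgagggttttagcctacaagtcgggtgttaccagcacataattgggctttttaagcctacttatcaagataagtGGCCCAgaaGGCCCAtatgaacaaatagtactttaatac
The site II element was present in 105 of 194 ribosomal protein promoters (54.1%), 12 of 24 ribosome biogenesis, 6 of 9 CCT and 18 of 48 proteasome promoters, against 18.3% of all. The telo box was present in 36 of 194 ribosomal protein promoters (18.6%) and 5 of 24 ribosome biogenesis promoters, against 3.17% of all. Site II elements were present in 25.6% of promoters of genes that rose at least 4-fold and in 12.02% of those that fell at least 4-fold. Small heat shock protein promoters, of which most genes fell or were not called, also held a site II element in 10 of 19.

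Proteins of wall loosening showed the largest rises among the tested genes. Of 13 expansin genes, whose products loosen walls at low pH, 10 rose and none fell, with a median of 5.34. EXPA10 went from 0.394, 0.313 and 0.375 RPKM in the dry libraries to 923, 1435 and 468 in the stratified ones, a change of 9.29 ± 0.32 (limma adjusted p = 1.95e-12), and EXPA1 from 0.182, 0.0707 and 0.0346 to 513, 757 and 255. These genes had few reads in dry libraries, 9 to 11 each for EXPA10. The order of the stratified libraries was the same for both, library 2 highest and library 3 lowest. DGR2, a wall protein of the DUF642 family, stood at 1.48, 0.8900 and 0.804 RPKM dry and 1302, 1022 and 735 stratified (8.93 ± 0.27), and its relative AT5G11420 changed by 6.48 ± 0.32. Among xyloglucan enzymes 15 of 24 rose and 3 fell, or 13 and 5 with medians set equal. XYL1, an alpha-xylosidase that trims xyloglucan, rose from 0.922, 0.5702 and 0.622 to 279, 355 and 154 RPKM (7.20 ± 0.31), and XTH19 from 0, 0 and 0.0802 to 110.3, 84.4 and 51.5. Arabinogalactan proteins rose in 17 of 25 genes and fell in 2, with AGP15 at 5.51 ± 0.44. Pectin enzymes rose in 11 of 20 and fell in 3, or in 8 and 7 with medians set equal, with PME3, a pectin methylesterase, at 4.73 ± 0.48. Cellulose synthase family genes rose in 8 of 15 and fell in 3, or in 6 and 5 with medians set equal. The pectin and cellulose shares were near the 43.4% higher and 15.2% lower over all tested genes. Of the cellulose synthase family, the higher ones led by change, CSLC6 and CSLC04, belong to the clade that makes the xyloglucan backbone.

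Several wall and growth genes were without a read in dry seeds. Of 12622 loci at 0 in the 3 dry libraries, 69 stood at 1 RPKM or more in each stratified library, against 2 loci with the reverse pattern. The dry libraries held fewer reads, and the part of depth in this contrast was not tested. XTH15 had 70.8, 48.9 and 31.8 RPKM in the stratified libraries, which by its mean was at least 370.3-fold higher than dry libraries with 3 reads each would give. EXO, the growth-related protein EXORDIUM, had 47.5, 58.8 and 24.6 RPKM, at least 364-fold higher by the same measure. XTH16 had 32.2, 33.1 and 12.9 RPKM, the subtilase gene SBT5.6 21.5, 17.1 and 10.7 and the transcription factor gene bZIP44 19.7, 12.2 and 9.75. Stratified library 3 was the lowest for each of these genes. These bounds cover counting error only.

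Genes of gibberellin synthesis and of its repression were both among those that rose. Of 10 genes for synthesis and inactivation 6 rose and 1 fell, or 5 and 3 with medians set equal. Of all tested genes 43.4% rose and 15.2% fell. GA3OX1, which makes the active hormone, went from 0, 0 and 0.0352 to 12.3, 10.05 and 7.297 RPKM (3.40 ± 0.25, limma adjusted p = 1.86e-08). GA20OX3, of the preceding step, went from 3.33, 2.38 and 3.77 to 139.9, 37.6 and 71.7, with stratified library 1 far above library 2. The gene that fell was GA3, ent-kaurene oxidase of an early step (-0.83 ± 0.30), called in 18 of 22 fits. The DELLA repressors RGA1, RGL2 and GAI rose by 4.25 ± 0.28, 4.06 ± 0.29 and 3.45 ± 0.27 on the log2 scale, with RGL2, a main repressor of germination, at 2.72, 1.82 and 2.47 RPKM dry and 81.5, 52.8 and 37.5 stratified. The receptors GID1A and GID1C fell, GID1A from 61.6, 45.6 and 64.9 to 18.7, 20.8 and 11.98 RPKM. These 5 rises and 2 falls among 7 perception genes held under every scaling and with any library left out. GASA6, a peptide induced by gibberellin, rose from 0.248, 0.0601 and 0.118 to 151, 118 and 65.9 RPKM, while GASA3, called in 20 of 22 fits, changed by -1.56 ± 0.49. Of 6 GASA genes 3 rose and 1 fell, near the shares of all tested genes, or 2 and 2 with quantile normalization.

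Abscisic acid genes moved in both directions. In metabolism 5 of 10 rose and 2 fell, or 3 and 4 with medians set equal or quantile normalization. The first split was near the 43.4% higher and 15.2% lower of all tested genes. CYP707A2, which breaks the hormone down, rose from 9.91, 7.16 and 8.85 to 29.6, 28.6 and 14.6 RPKM, and so did NCED6, of synthesis, by 1.76 ± 0.24. ABA1, zeaxanthin epoxidase, fell from 77.1, 64.6 and 68.5 to 10.7, 20.4 and 7.47 RPKM. Among receptors, phosphatases and kinases 11 of 23 rose and 8 fell, or 9 and 12 with medians set equal. The share that rose, 47.8%, was near that of all tested genes, and 34.8% fell. The receptor gene PYL4 rose by 3.40 ± 0.31 and PYL12 changed by -2.76 ± 0.26. AHG1, a seed phosphatase that restrains the response, went from 249, 178 and 255 to 22.7, 143 and 13.4 RPKM, with stratified library 2 close to the dry values. The auxin list rose in 28 of 44 genes and fell in 6, or in 21 and 10 with medians set equal and in 35 and 3 with ribosomal RNA loci left out. The ethylene receptor gene ERS1 rose by 2.70 ± 0.25, and ACS2, of ethylene synthesis, changed by -2.52 ± 0.32. Ethylene genes rose in 4 of 13 and fell in 1, or in 3 and 6 with medians set equal, and cytokinin response regulators rose in 2 of 7 and fell in 1, or in 0 and 3.

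Regulators of maturation and dormancy did not move as a block: 5 of 16 rose and 5 fell, against 43.4% and 15.2% of all tested genes. Without stratified library 1 the split was 3 and 5, and without stratified library 2 it was 3 and 6. FUS3, a B3 activator of maturation, fell from 12.4, 11.9 and 14.6 to 0.301, 0.943 and 0.255 RPKM (-3.25 ± 0.24, limma adjusted p = 1.89e-08), and ABI5, the bZIP factor that activates LEA genes, from 169.8, 138 and 156 to 29.3, 76.1 and 20.4. In the opposite direction, ABI3, the B3 partner of FUS3, rose from 17.7, 15.7 and 15.1 to 63.9, 78.1 and 34.4 RPKM, and ABI4 from 1.22, 1.27 and 2.48 to 45.9, 59.2 and 27.2. DOG1, which sets dormancy depth, stood at 13.7, 11.6 and 14.4 RPKM dry and 8.18, 4.93 and 5.800 stratified. These groups did not overlap, which was also so for 9080 of the 15145 tested genes. The change of DOG1, -0.98 ± 0.43, did not pass (adjusted p = 0.0579), while 9 of 22 fits called it lower, median centring among them. DOG1, OLEO3, AT1G57540 and TOC1 lie outside the naming rule and were chosen after their values were seen. NTL8, a membrane-bound NAC factor known to restrain germination under salt, rose from 0.193, 0.04698 and 0.04598 to 131, 79.9 and 85.3 RPKM.

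**Figure D3:**
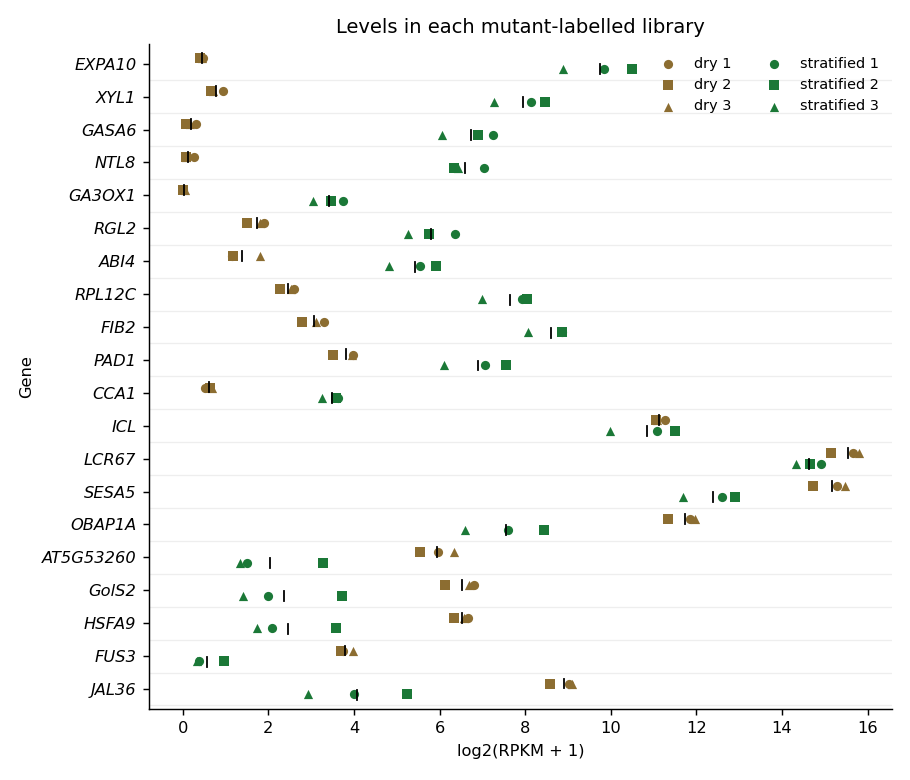
Level of 20 named genes (y axis) in each of the 6 mutant-labelled libraries as log2(RPKM + 1) (x axis). Brown symbols are dry and green symbols stratified libraries, circles, squares and triangles are libraries 1, 2 and 3, and the black ticks are group means. The groups are apart for every gene except ICL, and stratified library 2 (green square) is the highest stratified value for the genes that fell from OBAP1A to JAL36.

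In the circadian clock list 3 of 19 genes rose and 9 fell, where all tested genes had 43.4% higher and 15.2% lower. The morning genes LHY and CCA1 rose from 0.379, 0.416 and 0.344 to 11.2, 13.3 and 6.44 RPKM and from 0.435, 0.563 and 0.6100 to 11.4, 11.03 and 8.59. ELF4, of the evening complex, fell from 58.97, 40.97 and 56.2 to 17.6, 26.7 and 8.45 RPKM, and the activator RVE8 changed by -2.19 ± 0.31. TOC1, an evening gene, fell from 23.3, 19.4 and 22.03 to 8.31, 13.6 and 5.15 RPKM. The sources used here do not give the hour of sampling. Of 16 phytochrome and PIF genes, 5 rose and 4 fell, or 3 and 7 with medians set equal, 3 and 4 without stratified library 1 and 3 and 5 without stratified library 2. PHYA, the far-red receptor, rose from 19.8, 19.1 and 15.8 to 85.6, 75.8 and 48.4 RPKM, PIL5 (PIF1), a light-sensitive repressor of germination, from 13.7, 12.9 and 13.1 to 43.3, 65.5 and 25.6, and HY5, which promotes light responses, changed by -2.16 ± 0.37.

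Cold-response genes gave no common direction after 2 days at 4 °C: 3 of 13 were higher and 4 lower, or 8 and 3 with the ribosomal RNA share as a covariate. The RNA-binding protein gene GRP7, induced by cold in seedlings, rose from 67.4, 51.4 and 63.8 to 1256, 909 and 551 RPKM (3.80 ± 0.34). LTI65, which responds to cold, drought and abscisic acid, fell from 324, 227 and 303 to 43.7, 119.7 and 23.4 RPKM, and COR27 changed by -1.56 ± 0.36. In the polycomb list 11 of 17 genes rose (64.7%) and 2 fell (11.8%), against 43.4% and 15.2% of all tested genes. VRN5, which acts with VIN3 in vernalization, rose by 2.31 ± 0.30, and the ring-finger genes RING1B and RING1A changed by -1.11 ± 0.25 and -0.77 ± 0.28, the latter called in 18 of 22 fits. The polycomb count fell to 6 higher without stratified library 1, without stratified library 2 or with medians set equal. Of 15 genes for DNA and RNA methylation 7 rose and 2 fell, or 6 and 6 with medians set equal. The first split was near the 43.4% higher and 15.2% lower of all tested genes. ALKBH10B, an RNA demethylase, rose from 2.000, 1.78 and 2.304 to 14.1, 15.7 and 7.65 RPKM, and DML1 (ROS1), a DNA demethylase, fell from 7.597, 8.11 and 5.76 to 0.889, 1.07 and 0.629.

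Genes for DNA replication rose in 14 of 17 cases and tubulin genes in 12 of 14, with none falling in either list. With medians set equal 8 replication and 9 tubulin genes rose, and without stratified library 1 the counts were 10 and 9. PCNA2, the polymerase clamp, stood at 0.857, 0.0463 and 0.0906 RPKM dry and 9.44, 7.35 and 4.29 stratified, and RNR1, of nucleotide supply, at 4.41, 4.09 and 4.34 and 32.6, 34.2 and 20.4. Levels of the PCNA genes stayed low, with PCNA1 at 4.69, 4.38 and 3.13 RPKM after stratification. TUA6, an alpha tubulin, rose from 0.2695, 0.3201 and 0.285 to 69.5, 67.6 and 26.4 RPKM (5.30 ± 0.42). Cyclin genes rose in 4 of 6 and fell in none, and the D-type genes CYCD3;3 and CYCD3;2 rose by 2.03 ± 0.27 and 1.85 ± 0.30. Histone genes rose in 16 of 38, close to the 43.4% of all tested genes, and fell in 3. The split was 14 and 8 with medians set equal and 28 and 1 with ribosomal RNA loci left out. Among those that fell was AT1G08170, an H2B variant, from 231, 154 and 220.0 to 10.9, 36.6 and 6.04 RPKM. Aquaporins rose in 7 of 14 and fell in 3, near the shares of all tested genes (43.4% and 15.2%). BETA-TIP, of the storage vacuole, went from 2172, 1608 and 2247 to 144, 286 and 70.9 RPKM, and PIP3, of the plasma membrane, from 2.28, 2.08 and 2.44 to 102, 119 and 53.1.

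Genes for reserve breakdown showed few changes in RPKM. Of 19 genes for oil breakdown and the glyoxylate cycle 3 rose and 4 fell, or 9 and 3 with the ribosomal RNA share as a covariate. ICL, isocitrate lyase, was already at 2456, 2142 and 2169 RPKM in dry seeds and stood at 2171, 2881 and 1013 after stratification, with overlapping groups (limma adjusted p = 0.621). PCK1, which leads from oil to sugar, rose from 271, 225 and 246 to 772, 817 and 399 RPKM, and the peroxisomal oxidase genes ACX2 and ACX1 changed by 1.81 ± 0.31 and -1.05 ± 0.31. Without stratified library 3 the count was 8 higher and 3 lower. Nuclear genes for photosynthesis rose in 17 of 33 and fell in 4, or in 10 and 11 with quantile normalization. The first split, 51.5% and 12.1%, compares with 43.4% and 15.2% of all tested genes. RBCS1A, the Rubisco small subunit, went from 9.86, 7.81 and 11.2 to 86.98, 89.9 and 43.7 RPKM, while LHCB4.1, of light harvesting, changed by -1.82 ± 0.53, a call lost without stratified library 3.

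Nuclear genes for organelles rose in large part: 22 of 27 for mitochondrial import, with TOM7-2 at 4.96 ± 0.28, 41 of 49 for organelle ribosomal proteins, with PSRP3/1 at 4.09 ± 0.39, and 252 of 380 for pentatricopeptide repeat proteins, which process organelle RNA. The last count was 156 with medians set equal. Respiratory chain genes rose in 36 of 56 and fell in 5, or in 27 and 9 with medians set equal and in 21 and 4 without stratified library 1. Transcripts of the organelle genomes depended on the library. Of 67 plastid transcripts 56 rose, with median differences from the dry mean of 3.04, 0.46 and 2.86 in stratified libraries 1, 2 and 3. For 58 mitochondrial transcripts, 29 of which rose, these were 1.29, 0.19 and 1.41. MATK, a plastid maturase, had 1.25, 1.38 and 0.745 RPKM dry and 85.9, 3.13 and 69.2 stratified. Library 2, with little change, also had the smallest ribosomal RNA share of the stratified libraries, 3.83% against 15.2% and 29.3%. With the ribosomal RNA share as a covariate 23 plastid and 3 mitochondrial transcripts rose, and with medians set equal 17 and 1. Without library 1 the counts were 31 and 6, and without library 3 they were 27 and 4. The libraries were made from RNA selected on oligo-dT, and the part of ribosomal RNA in these values was not tested.

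Transcription factor and defence families held changes in both directions, where all tested genes had 43.4% higher and 15.2% lower. ERF and DREB factors rose in 24 of 63 genes and fell in 16, or in 18 and 22 with medians set equal, with CRF3 at 4.73 ± 0.29 and DREB2D at -3.04 ± 0.38. NAC factors rose in 18 of 33 and fell in 7, or in 12 and 12 with medians set equal. Among those that fell was ATAF1, from 688, 525 and 692 to 132, 264 and 72.2 RPKM. WRKY factors rose in 4 of 22 and fell in 7, or in 9 and 7 with the ribosomal RNA covariate, with WRKY15 at -2.10 ± 0.37. The bHLH factors rose in 18 of 47 and fell in 6, near the shares of all tested genes, or in 11 and 15 with medians set equal. MYB factors rose in 6 of 23 and fell in 6. Their split became 4 and 11 with medians set equal and 12 and 3 with ribosomal RNA loci left out. Glutathione S-transferases rose in 9 of 37 and fell in 6, or in 7 and 18 with medians set equal, with GSTU24 at 3.40 ± 0.39 and GSTF3 at -2.63 ± 0.52. UDP-glycosyltransferases rose in 20 of 58 and fell in 18, and cytochromes P450 rose in 24 of 81 and fell in 24. With medians set equal these splits became 10 and 29, and 21 and 37. Class III peroxidases rose in 5 of 8 and fell in 1, or in 3 and 1 without stratified library 1. CPD, a P450 of brassinosteroid synthesis, rose from 2.83, 1.703 and 1.92 to 37.6, 34.9 and 22.7 RPKM. The epidermal lipid list rose in 17 of 22, with LP1, a lipid transfer protein, at 4.78 ± 0.45 and KCS10, of cuticle formation, at 4.18 ± 0.30. FAD3, which makes linolenic acid, rose from 0.484, 0.376 and 0.399 to 149.8, 111 and 87.9 RPKM.

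The 12 embryo and maturation markers summed to 111700 to 157600 RPKM in dry and 22100 to 41710 in stratified libraries. The single endosperm marker matched, MAN7, a mannanase, went from 0.842 ± 0.343 to 13.7 ± 9.52 RPKM (SD, n = 3), and 5 of 6 seed coat markers summed to 0.662 to 0.927 and 2.48 to 5.27. The 3 matched green leaf markers summed to 9.04 to 12.7 RPKM dry and 45.3 to 92.8 stratified, of which CA1 was at 0 in all 6 libraries, and the matched pollen and root markers stayed below 0.4 RPKM. In bulk seeds, fewer cells of a type and less RNA per cell cannot be told apart.

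The stratified libraries moved to different extents. Stratified libraries 1, 2 and 3 had 5586, 6459 and 2864 genes at least 2-fold above the dry mean and 1536, 776 and 2945 at least 2-fold below it. The median difference over all genes was 0.62, 0.82 and 0.04, and the ribosomal RNA shares were 15.2%, 3.83% and 29.3%. Library 3, with the largest share, had the fewest genes above the dry mean and the most below it. Directions were shared nonetheless: at least 99.8% of the genes that rose lay above the dry mean in each library, and at least 97.9% of those that fell lay below it, which the calls themselves favour. Without library 3 the counts were 8209 higher and 1853 lower, and without library 2 they were 5561 and 3117. The part of ribosomal RNA in these shifts was not tested.

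**Figure D4:**
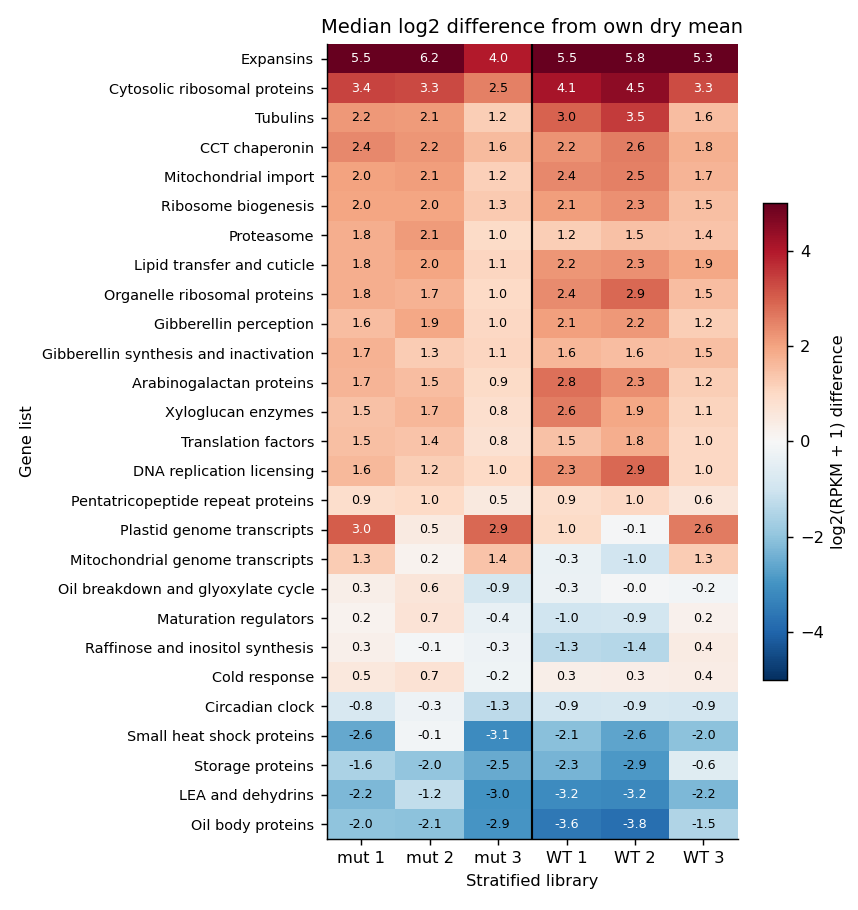
Median difference of each gene list from the dry mean of its own genotype, in log2(RPKM + 1), in each stratified library (columns, mut for mutant-labelled and WT for wild type). Red is higher and blue lower than dry. Mutant-labelled library 3 has the lowest value of its genotype in most lists, library 2 the smallest fall in small heat shock proteins, and wild-type library 3 differs from wild-type libraries 1 and 2 in storage proteins, oil-body proteins and organelle transcripts.

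Most genes that changed in mutant-labelled seeds also changed, in the same direction, in the wild type. The wild type had 7535 genes higher (49.8%) and 2862 lower (18.9%), and 8200 of the 8875 mutant-labelled calls were shared with it in direction, 92.4% of these and 78.9% of the wild-type calls. In 6510 of the 8200 the wild-type change was the larger in size. The median change of cytosolic ribosomal protein genes was 3.07 in mutant-labelled and 3.94 in wild-type seeds, and that of the proteasome 1.65 and 1.37. These sizes depended on the library. Ribosomal protein messengers held 25.7, 27.7 and 14.3% of summed RPKM without ribosomal RNA in wild-type stratified libraries 1, 2 and 3. The mutant-labelled ones held 15.6, 13.1 and 14.7%. Nuclear ribosomal RNA took 5.95%, 3.10% and 15.4% of reads in those wild-type libraries, and its part in these sizes was not tested. The test of the difference between the responses called 4 genes (0.0264%), and 1057 had an unadjusted p under 0.05. DIN2, a dark-inducible gene with the synonym BGLU30 for a beta-glucosidase, rose from 14.4, 9.96 and 12.6 to 25.3, 38.98 and 21.6 RPKM in mutant-labelled seeds. In the wild type it went from 13.3, 13.4 and 14.2 to 3.41, 0.700 and 4.62 RPKM, and the responses differed by 3.19 ± 0.51 (limma adjusted p = 0.0239).

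The other genes were at or near 0 in all dry libraries and rose less in mutant-labelled seeds. GSTU25, a glutathione S-transferase, reached 0.862, 0.946 and 0.491 RPKM there and 7.02, 11.1 and 7.65 in the wild type, a difference of responses of -2.43 ± 0.30 (limma adjusted p = 0.00285). AT5G05365, of the heavy metal transport and detoxification superfamily, reached 3.59, 1.79 and 1.68 RPKM against 15.8, 22.4 and 11.8 (-2.40 ± 0.37, adjusted p = 0.0215). UGT73B2, a glucosyltransferase, reached 0.786, 0.621 and 0.595 RPKM against 5.37, 7.65 and 7.35 (-2.20 ± 0.28, adjusted p = 0.00285). With a pseudocount of 0.1 none of the 4 was called (adjusted p from 0.235 to 0.309). The call of DIN2 held in 6 of 21 fits, of AT5G05365 in 9, of UGT73B2 in 18 and of GSTU25 in 19. The number of such genes rests on wild-type stratified library 3: without it the test called 585 higher and 1757 lower.

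**Figure D5:**
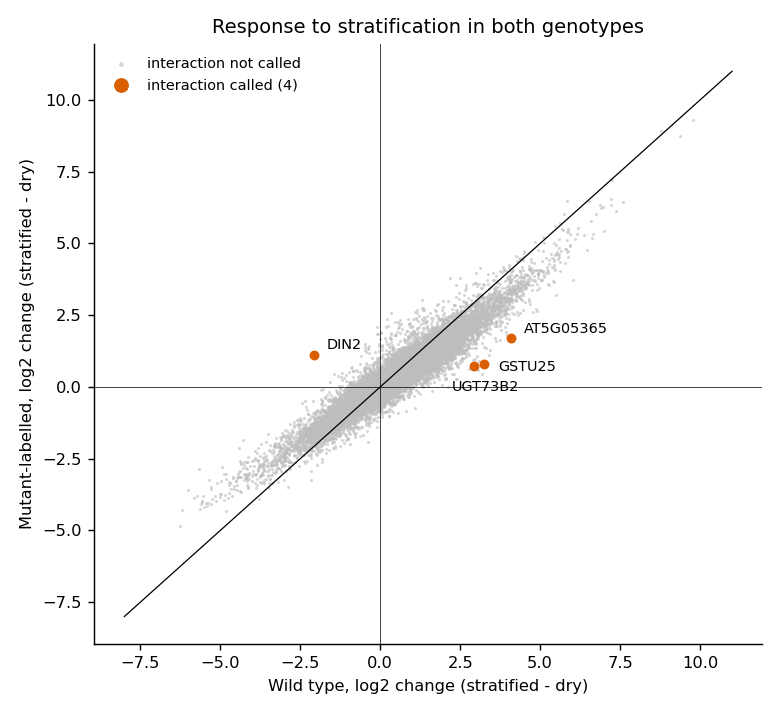
Change with stratification in the wild type (x axis) and in mutant-labelled seeds (y axis) for each tested gene, as the difference of log2(RPKM + 1) between stratified and dry means, with the line of equal change. Orange points are the 4 genes for which the responses differed, of which DIN2 has opposite signs, and most points at large changes lie nearer to 0 on the mutant-labelled axis.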

How the data were processed

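The authors deposited RPKM values of 32833 loci in 12 libraries. Per the labels' protocols, poly(A) RNA was purified with oligo-dT and a directional library kit was used. STAR and the build TAIR10 are named, per the submitters' processing notes. How reads were counted, whether by strand, and what became of multi-mapping reads is not given in the sources used here. Names, positions and promoters came from the TAIR10.1 assembly with RefSeq annotation. Values were tested as log2(RPKM + 1) in R 4.3.3 with limma 3.58.1, with 4 group means over 12 libraries, a mean-variance trend, 8 residual degrees of freedom, 2-sided tests and Benjamini-Hochberg adjustment over all 15145 genes with at least 1 RPKM in 3 libraries, at a threshold of 0.05. This scale understates changes of low genes. Reads per library were recovered from the steps between low values, of which at least 99.2% in every library were whole within 0.05 reads.

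Groups came from the titles. Members, 54 gene lists and tests were chosen with earlier results of these data known. Genes were named by rule: the 15 largest rises and falls of at least 2-fold, without overlap and with at least 5 RPKM; the 10 most abundant loci at 0 in dry libraries; the 10 most abundant of each state; up to 3 members per list and direction; and called interactions. Alternatives were the pseudocount, filter, centring, quantile normalization, ribosomal RNA handling, a replicate block, the mutant-labelled libraries alone and leaving out each library.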

Additional observations from a re-analysis of the deposited data

Results flagged for a closer look

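These results stood out because the genotypes responded differently by the test of the difference itself. DIN2 rose with stratification in mutant-labelled seeds and was lower in wild-type seeds, a difference of responses of 3.19 on the log2 scale. GSTU25, AT5G05365 and UGT73B2 rose less in mutant-labelled than in wild-type seeds, with differences of -2.43, -2.40 and -2.20. Across all fits tried these differences ran from 2.68 to 3.71 for DIN2 and from -3.34 to -2.25 for GSTU25. They ran from -2.81 to -2.17 for AT5G05365 and from -3.07 to -2.08 for UGT73B2, with no change of sign for any of these genes. The genes were chosen by this test in the same libraries, which favours a constant sign. The calls held less often, in 6 of 21 fits for DIN2, 9 for AT5G05365, 18 for UGT73B2 and 19 for GSTU25. None was called with the lower pseudocount.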

How the results depend on the processing

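For 266 of 306 named genes none of 21 alternative settings lost or turned the call. The named genes were largely chosen for large changes called in these same libraries, which favours that count. Of 108 list counts, 36 stayed within 1.5 times in every setting. CRA1, AT1G68250 and ARR9 changed sign with quantile normalization, to 0.19, 0.14 and -0.072. The count of genes higher was 10214 without ribosomal RNA loci, and that of genes lower 5121 with median centring and 5300 with quantile normalization. The median change of all genes moved from 0.50 to 0.03 and -0.03 with these centrings, to 0.90 without ribosomal RNA loci and to 0.82 with their share as a covariate. Leaving out each library gave 5273 to 8209 genes higher and 1754 to 3117 lower. Storage genes lower fell from 9 to 1 with quantile normalization.

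The genotype difference gave 0 genes higher and 0 lower with a pseudocount of 0.1, and 0 higher and 5 lower with median centring. It gave 7 lower without a filter, 0 lower with a filter of 5 RPKM, 6 lower with quantile normalization, and 4 higher and 7 lower with the ribosomal RNA covariate. Leaving out each library gave 0 to 585 higher and 2 to 1757 lower, the highest without wild-type stratified library 3. Deviations of same-numbered libraries from their group means correlated across genes at -0.32 to 0.20. Such values cannot tell whether the labels' numbers pair them, because a shared origin need not leave correlated deviations. The replicate block gave 6661 genes higher and 2292 lower, and 1 and 7 for the genotype difference. The cause of these shifts was not tested. Depth limits genes with few reads.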
